A study of Mus musculus with 18 samples.

Results

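The genes described are 9 that encode subunits of voltage-gated potassium channels, picked by symbol out of 55385 genes in the count table. Of these, 6 encode the pore-forming subunits Kcna1, Kcna2, Kcnc1, Kcnc2, Kcnd2 and Kcnq3, and 3 encode the beta subunits Kcnab1, Kcnab2 and Kcnab3. All 9 were found in every library and all 9 were among the 18717 genes that passed the filter on low counts and were tested.

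Polyadenylated RNA was sequenced from brain cortex of adult mice, aged 17.1 to 18 weeks, in 3 genotypes with 6 libraries each (3 males and 3 females). WT mice were C57BL/6J. In Dp16 mice, a model of trisomy 21, a segment of mouse chromosome 16 is duplicated, which puts its genes at 3 copies. Dp16_2xIFNRs mice carry the same duplication with the interferon receptor genes inside it back at 2 copies. The labels name no treatment for any group. Neither model covers the whole set of genes that are in excess in human trisomy 21, and every cell of the animal carries the duplication. None of the 9 genes lies in the segment, so all are at their normal copy number in every group.

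Voltage-gated potassium channels open when a neuron depolarises and let potassium leave the cell, which ends the action potential and sets how often a neuron can fire. A channel is a ring of 4 pore-forming subunits, and each subunit lends a loop with a short signature sequence that lines the selectivity filter. Kcna1 and Kcna2 (Kv1.1 and Kv1.2) sit on axons, Kcnc1 and Kcnc2 (Kv3.1 and Kv3.2) serve fast-spiking interneurons, Kcnd2 (Kv4.2) carries the A-type current of dendrites, and Kcnq3 (Kv7.3) contributes to the M-current, which restrains repeated firing. Kcnab1, Kcnab2 and Kcnab3 encode cytoplasmic proteins of the aldo-keto reductase fold that bind Kv1 channels, assist their transport to the membrane and, in some combinations, speed their inactivation.

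The stretch of coding sequence that holds the filter signature is shown for 5 of the pore-forming genes, since it is what these genes share and the beta subunits lack. The motif searched was the codon pattern of the filter signature, that is a codon that starts with AC, one with T in the middle, one that starts with GG, one that starts with TA, and GG, in frame and on the coding strand only of the longest coding transcript of each gene, and its match is in capitals. The sequences are from the GENCODE M21 transcripts on build GRCm38, written 5′ to 3′ on the gene's own strand.
Kcna1, chr6:126642214-126642257, minus strand, exon 2: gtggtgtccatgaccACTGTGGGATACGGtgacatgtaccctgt
Kcna2, chr3:107105209-107105252, plus strand, exon 3: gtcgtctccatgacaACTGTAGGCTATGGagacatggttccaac
Kcnc1, chr7:46427958-46428001, plus strand, exon 2: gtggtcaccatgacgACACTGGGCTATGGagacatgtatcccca
Kcnc2, chr10:112456214-112456257, plus strand, exon 3: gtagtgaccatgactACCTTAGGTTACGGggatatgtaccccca
Kcnd2, chr6:21217391-21714155, plus strand, exons 1 and 2 with the intron left out: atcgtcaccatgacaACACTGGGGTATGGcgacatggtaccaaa
The genes lie at chr6:126640397-126646384 (Kcna1), chr3:107101146-107115005 (Kcna2), chr7:46396497-46438704 (Kcnc1), chr10:112271121-112467024 (Kcnc2), chr6:21215503-21729805 (Kcnd2) and chr15:65986387-66286642 (Kcnq3). Each of the 5 genes shown held 1 in-frame match and none of the 3 beta subunit genes held any. Over all protein-coding genes, 69 of 21877 (0.315%) held the motif. A match is a description of the letters only.

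Kcnab1 lies at chr3:65109384-65378223, Kcnab2 at chr4:152390742-152477871 and Kcnab3 at chr11:69326258-69333042. They are shown at the 60 coding bases where they are most alike, because reads could be shared between Kcnab3 and its relatives only where their sequences match. Capitals mark the positions that are not identical in all 3 genes.
Kcnab1, chr3:65357067-65357126, plus strand, exon 10: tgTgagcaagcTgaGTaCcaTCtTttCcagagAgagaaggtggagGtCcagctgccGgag
Kcnab2, chr4:152395141-152395200, minus strand, exon 13: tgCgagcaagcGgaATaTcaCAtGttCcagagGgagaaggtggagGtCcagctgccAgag
Kcnab3, chr11:69331096-69331155, plus strand, exon 10: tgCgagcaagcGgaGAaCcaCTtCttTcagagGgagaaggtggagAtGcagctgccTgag
In this window 47 of 60 positions were identical, and over the whole alignment 618 of 1077 columns without a gap were. Kcnab3 shared 66% of aligned coding bases with Kcnab1 and 67.6% with Kcnab2, while Kcnab1 and Kcnab2 shared 74.6%. The longest exact run that Kcnab3 shared with either was 18 bases. Runs with mismatches were not measured, and whether reads were shared was not tested.

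The depth behind the 9 genes was high. Library totals ran from 46346019 to 67281449 counts, and the lowest count of any of these genes in any library was 2372, for Kcnab3. The labels number 6 mice per genotype, and p-values measure the spread between these samples. Library 4 of the Dp16 group stood apart for these genes: it was the lowest of its group in 7 of the 9 and below its group's median in 9 of 9. For Kcnab3 and Kcnd2 the difference between Dp16 and WT is given with and without it. Most other results, the correlations within Dp16 among them, include it. In bulk tissue, fewer cells of a type and less RNA per cell cannot be told apart.

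Levels are compared between genes on the scale of RPKM, the authors' counts scaled by gene length and library total. The lengths implied by these values were 3963 bases for Kcnab1 and 11824 for Kcnq3. All exons of these 2 genes in GENCODE M21 together cover more, 8593 and 14708 bases, while for Kcna2 and Kcnd2 the lengths were equal. The order of the genes and their shares below hold for the authors' lengths and would differ with others. Kcnab2 was by far the most abundant, with a mean of 110.8 ± 5.10 RPKM (SD, n = 18 libraries), and it ranked above the other 8 genes in 18 of 18 libraries. The remaining 8 lay close together, from Kcna2 at 27.3 ± 2.54 RPKM, Kcnab3 at 25.8 ± 4.64 RPKM and Kcnc1 at 25.3 ± 1.42 RPKM, through Kcnab1 at 24.4 ± 3.71 RPKM and Kcna1 at 20.4 ± 3.06 RPKM, down to Kcnq3 at 19.1 ± 1.33 RPKM, Kcnd2 at 18.9 ± 1.90 RPKM and Kcnc2 at 16.7 ± 1.38 RPKM. Kcnab2 over Kcna2 was the one pair of neighbours in this order whose ranges over the 18 libraries did not overlap; the other 7 pairs of neighbours did. All 9 stood in the upper part of the tested genes, between the 80th percentile for Kcnc2 and the 97.7th for Kcnab2.

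**Figure D1:**
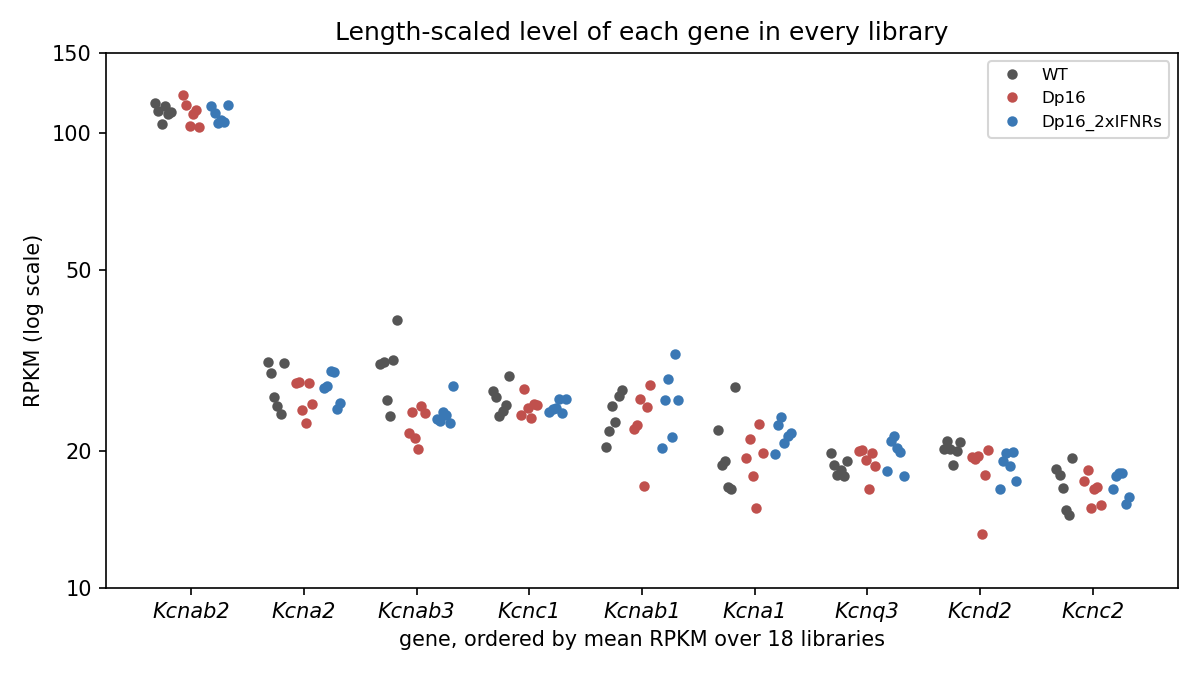
RPKM (log axis) of the 9 genes, ordered by mean, with 1 point per library coloured by genotype. Kcnab2 lies between 103 and 121 RPKM in all 18 libraries, the other 8 genes lie below 40 RPKM, and the WT points of Kcnab3 reach 38.7 RPKM.

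Within the beta family, Kcnab2 made up 67.3% ± 2.90 (SD, n = 6) of the summed RPKM of the 3 genes in WT, 70.6% ± 3.15 in Dp16 and 68.7% ± 2.52 in Dp16_2xIFNRs. The share of Kcnab3 was 18.3% ± 2.41 in WT, 14.5% ± 0.981 in Dp16 and 15.2% ± 0.820 in Dp16_2xIFNRs. Between the Kv1 genes, Kcna1 made up 41.5% ± 2.92, 42.2% ± 2.08 and 44.1% ± 2.28 of the pair in the same order, and between the Kv3 genes Kcnc2 made up 39.3% ± 1.74, 39.6% ± 1.72 and 40.2% ± 1.61. Each of these ranges of shares overlapped between genotypes, and of the Kcnab genes only Kcnab3 had a lower mean share in both duplication genotypes than in WT.

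Whether the duplication changes these genes was asked by comparing Dp16 with WT. Kcnab3 was lower in Dp16, at 0.748 of its WT level, and it was the only one of the 9 to pass the test. The other 8 genes lay between 0.895 and 1.02 of WT and did not pass. Levels between libraries are given as CPM, counts scaled by library size after adjustment by the trimmed mean of M-values. A gene was called at an adjusted p below 0.05 over all genes tested by edgeR's quasi-likelihood test, and 140 of 18717 genes (0.748%) were called in this comparison, 21 of them (0.112%) lower. The count of members called was 1 of 9, lower, and 1 was at an unadjusted p below 0.05, as were 8.84% of all genes. The CPM ranges of Dp16 and WT overlapped for all 9 genes, while they did not for 0.919% of all genes.

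Kcnab3 ran from 61.7 to 96.8 CPM in WT, with a median of 80.1 CPM. In Dp16 it ran from 51.0 to 63.5 CPM, with a median of 58.3 CPM. All 6 Dp16 libraries were below the WT median and 4 were below the lowest WT library, but the groups overlapped, since WT libraries 3 and 4 were low (65.8 and 61.7 CPM). The means were 77.6 ± 12.5 CPM in WT and 57.9 ± 5.02 CPM in Dp16 (SD, n = 6 each). The log2 fold change was -0.42 (SE 0.084, 95% interval -0.60 to -0.24, edgeR adjusted p = 0.0163), the 95th smallest p of all genes. The call was lost without any 1 of 3 libraries: the edgeR adjusted p was 0.0574 without WT library 2, 0.0510 without Dp16 library 3 and 0.0574 without Dp16 library 4, where the log2 fold change was -0.40, -0.39 and -0.39. It was also lost, at an adjusted p of 0.109 and a log2 fold change of -0.42, when only the WT and Dp16 libraries entered the fit.

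Kcnab3os, the antisense gene at the Kcnab3 locus, overlaps 147 exonic bases of Kcnab3 and whether reads were counted by strand is not given in the sources used here. Its level was 0.340 ± 0.112 CPM in WT, 0.306 ± 0.0869 CPM in Dp16 and 0.265 ± 0.0496 CPM in Dp16_2xIFNRs (SD, n = 6 each). The level of the antisense gene was thus under 1 CPM in all 18 libraries, against 51.0 CPM or more for Kcnab3.

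**Figure D2:**
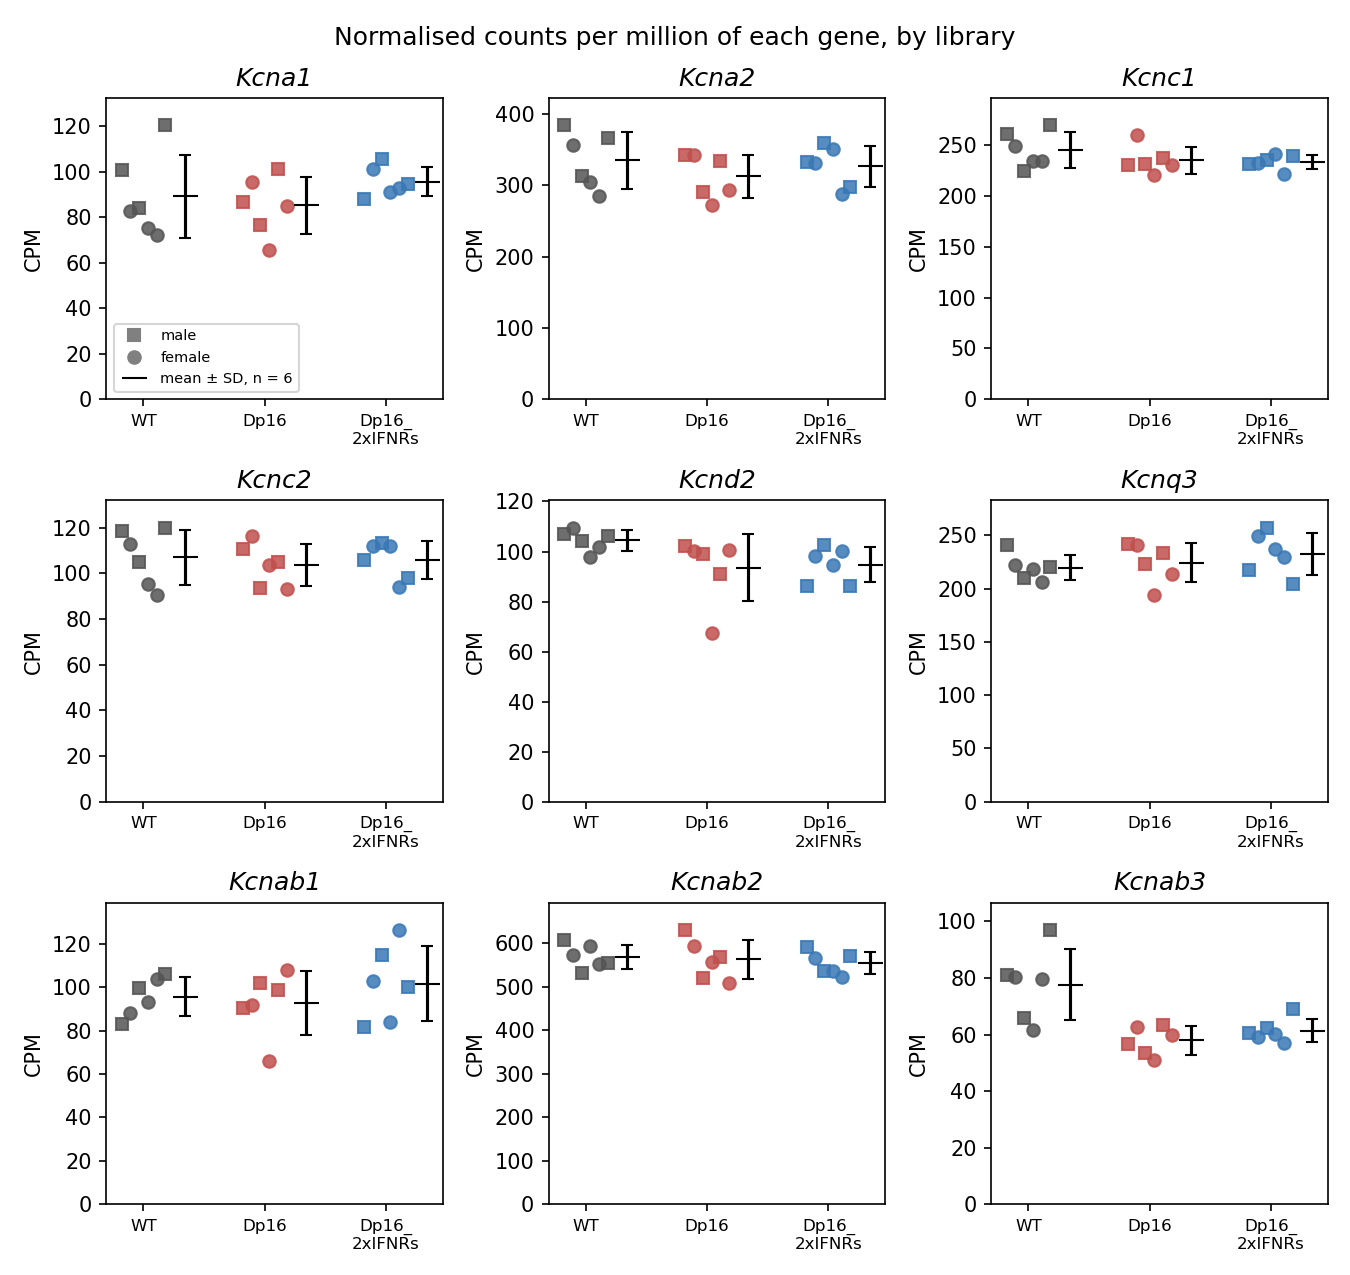
CPM of each gene in every library (squares males, circles females) with the mean and SD of each genotype (bars, n = 6). Kcnab3 lies at or below 63.5 CPM in Dp16 and reaches 96.8 CPM in WT, and Kcnd2 has 1 Dp16 library at 67.3 CPM apart from the other 5.

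Among the pore-forming genes, Kcnd2 had the smallest p in Dp16 against WT. It ran from 97.8 to 109 CPM in WT (median 105 CPM) and from 67.3 to 102 CPM in Dp16 (median 99.8 CPM). All 6 Dp16 libraries were below the WT median and 2 were below the lowest WT library. The log2 fold change was -0.16 (SE 0.079, 95% interval -0.33 to 0.01, edgeR adjusted p = 0.590). Without Dp16 library 4 it was -0.08 (edgeR adjusted p = 0.791).

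Kcna1 and Kcna2, the axonal Kv1 pair, did not pass. Kcna1 ran from 72.1 to 120 CPM in WT and from 65.8 to 101 CPM in Dp16, and Kcna2 from 285 to 384 CPM in WT and from 273 to 343 CPM in Dp16. Their log2 fold changes were -0.06 (95% interval -0.28 to 0.16) and -0.10 (-0.26 to 0.06). The groups overlapped over most of their range.

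The Kv3 pair varied less between libraries. Kcnc1 ran from 224 to 269 CPM in WT and from 221 to 260 CPM in Dp16, a log2 fold change of -0.06 (95% interval -0.16 to 0.04). Kcnc2 ran from 90.6 to 120 CPM in WT and from 93.3 to 116 CPM in Dp16, a log2 fold change of -0.04 (-0.19 to 0.11). Kcnq3 was at 206 to 241 CPM in WT and 194 to 242 CPM in Dp16, a log2 fold change of 0.03 (-0.10 to 0.16). For these 3 genes every Dp16 interval stayed within 0.20 of 0 on the log2 scale.

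The other beta subunit genes also did not pass. Kcnab2, the abundant form, ran from 533 to 609 CPM in WT and from 509 to 630 CPM in Dp16, a log2 fold change of -0.02 (95% interval -0.12 to 0.09). Kcnab1 ran from 83.2 to 106 CPM in WT and from 66.0 to 108 CPM in Dp16, a log2 fold change of -0.04 (-0.29 to 0.20), the widest interval of the 3 beta genes. The Dp16 minimum of Kcnab1 was again library 4, and the other 5 Dp16 libraries lay at 90.7 CPM or above. Exons of Kcnab1 share 201 bases with the antisense gene A330015K06Rik and exons of Kcnab2 share 125 bases with Gm16334, so some of their reads could be split.

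In the comparison of Dp16_2xIFNRs with WT, which asks what the duplication does when the interferon receptor genes are at 2 copies, 196 of 18717 genes (1.05%) were called, 58 of them (0.31%) lower. No member was called by edgeR, while 1 of the 9, Kcnab3, was at an unadjusted p below 0.05, as were 11.5% of all genes. DESeq2, which called 394 of the 18717 genes, called Kcnab3. Both comparisons share the 6 WT libraries, so their values stand side by side and do not count as 2 independent results. Kcnab3 ran from 57.0 to 69.0 CPM in Dp16_2xIFNRs (median 60.4 CPM, mean 61.4 ± 4.10 CPM, SD, n = 6). All 6 were below the WT median and 4 were below the lowest WT library. The log2 fold change was -0.34 (SE 0.084, 95% interval -0.51 to -0.16), that is 0.792 of WT, with an edgeR adjusted p of 0.0627. Of 34 alternatives 29 did not call it either, with an edgeR adjusted p of up to 0.161 when 1 library was left out. It passed without WT library 3 (edgeR adjusted p = 0.0259) or WT library 4 (0.0172), and with DESeq2 (0.0133). With the replicate number as a block it passed too (edgeR adjusted p = 0.00788), but no label says that these numbers pair the mice. It also passed in limma-voom with the middle number of the sample identifiers as a random block (adjusted p = 0.0372). The labels do not say what that identifier number means, and 11 libraries share it with a library of another genotype: library 1 of all 3 genotypes, libraries 2 of Dp16 and Dp16_2xIFNRs, libraries 4 and libraries 6 of WT and Dp16_2xIFNRs, and Dp16 library 4 with Dp16_2xIFNRs library 5. The deviations of these 7 pairs from their group means correlated between 0.104 and 0.428.

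The pore-forming genes in Dp16_2xIFNRs differed from WT by log2 fold changes between -0.14 for Kcnd2 and 0.11 for Kcna1. Kcnd2 ran from 86.3 to 103 CPM (median 96.4 CPM), with 6 of 6 libraries below the WT median and 3 below the lowest WT library, and its edgeR adjusted p was 0.542. Kcna1 ran from 88.2 to 106 CPM, with none of the 6 below the WT median, a log2 fold change of 0.11 (95% interval -0.11 to 0.33, edgeR adjusted p = 0.780). Kcnc1 ran from 222 to 241 CPM, all 6 below the WT median, at -0.07 (-0.17 to 0.03). Kcna2, Kcnc2 and Kcnq3 were at -0.03, -0.01 and 0.08. Of the beta subunits, Kcnab1 ran from 81.6 to 126 CPM, a log2 fold change of 0.09 (-0.16 to 0.34), and Kcnab2 from 524 to 592 CPM, at -0.04 (-0.15 to 0.07).

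The direct comparison of Dp16_2xIFNRs with Dp16 tests the interferon receptor copy number itself. It called 4 of 18717 genes (0.0214%), none of them among the 9 by edgeR or DESeq2, and no member was at an unadjusted p below 0.05, as were 2.19% of all genes. The ranges of these groups overlapped for all 9, and did not for 0.107% of all genes. Kcnab3 differed by a log2 fold change of 0.08 (95% interval -0.09 to 0.26, edgeR adjusted p = 1). Its range was 51.0 to 63.5 CPM in Dp16 and 57.0 to 69.0 CPM in Dp16_2xIFNRs. The remaining intervals reached at most 0.39 on the log2 scale, for Kcna1 at 0.17 (-0.05 to 0.39). A difference in these genes that follows the receptor copy number was therefore not detected, within those intervals.

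With both duplication genotypes averaged and set against WT, 269 of 18717 genes (1.44%) were called, 88 of them (0.47%) lower, and 1 of the 9 members was called, again Kcnab3. Its log2 fold change was -0.38 (SE 0.072, 95% interval -0.53 to -0.23), 0.769 of WT, with an edgeR adjusted p of 0.00702. This contrast uses the same WT libraries as the 2 above. The call was kept without each of the 18 libraries in turn, with log2 fold changes from -0.43 to -0.31 and edgeR adjusted p from 0.00145 to 0.0316. Kcnd2 was at -0.15 (SE 0.068, 95% interval -0.29 to -0.01), with an unadjusted p of 0.0397 and an edgeR adjusted p of 0.366. It and Kcnab3 were the 2 members at an unadjusted p below 0.05, as were 12.4% of all genes.

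**Figure D3:**
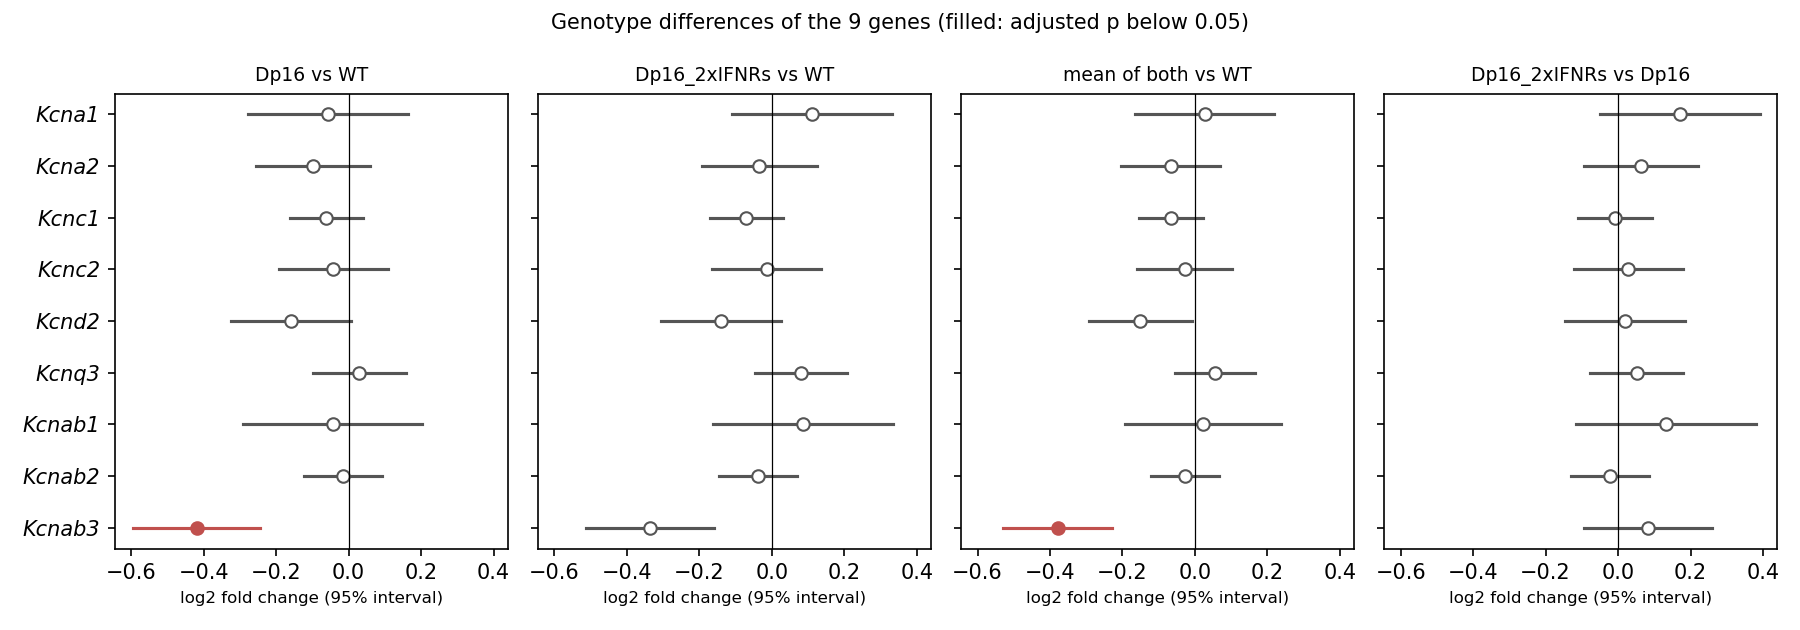
Log2 fold change of the 9 genes in 4 contrasts, with 95% intervals as lines and genes called at an adjusted p below 0.05 filled in red. Kcnab3 is at -0.42 in Dp16 against WT and -0.38 for the mean of both, and in Dp16_2xIFNRs against Dp16 all 9 intervals include 0.

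The 9 genes together had a median log2 fold change of -0.06 in Dp16 against WT and -0.03 in Dp16_2xIFNRs against WT, beside medians of -0.0017 and 0.00043 over all 18717 genes tested. In Dp16 8 of 9 were below 0 and 1 was above, and in Dp16_2xIFNRs 6 were below and 3 above. Against 0.748% called among all genes, 1 of 9 in Dp16 rests on Kcnab3 alone. That share includes genes of the duplicated segment, where no member lies. Outside the segment, 51 of 18602 genes were called higher and 21 lower in Dp16 against WT. In Dp16_2xIFNRs against WT these counts were 75 and 58, and for the mean of both 113 and 88.

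Sex was a second factor of the design. Between females and males 12 of 18717 genes (0.0641%) were called by edgeR, none of them a member. Kcna1 had the smallest p of the 9, with a log2 fold change of -0.17 in females (SE 0.086, 95% interval -0.36 to 0.01, edgeR adjusted p = 0.741). In WT, Kcna1 was at 83.9 to 120 CPM in the 3 males and 72.1 to 82.9 CPM in the 3 females, which did not overlap, as was true of 16% of all genes in WT, whereas in Dp16 the males ran from 76.8 to 101 CPM and the females from 65.8 to 95.4 CPM, and in Dp16_2xIFNRs the males from 88.2 to 106 CPM and the females from 91.2 to 101 CPM.

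The means of Kcnab3 were below WT in both sexes. Males were at 81.2 ± 15.5 CPM in WT, 57.9 ± 5.06 CPM in Dp16 and 64.0 ± 4.40 CPM in Dp16_2xIFNRs (SD, n = 3 each). Females were at 74.0 ± 10.6 CPM, 57.9 ± 6.11 CPM and 58.8 ± 1.61 CPM. In Dp16_2xIFNRs the sexes did not overlap for Kcnab3 (60.7 to 69.0 CPM in males, 57.0 to 60.2 CPM in females), as was true of 5.47% of all genes there. These and Kcna1 in WT were the 2 of 27 pairs of gene and genotype in which the sexes did not overlap. The interaction of genotype and sex for Kcnab3 was 0.13 (SE 0.18) in Dp16 and 0.01 (SE 0.18) in Dp16_2xIFNRs on the log2 scale, both with intervals that include 0. No gene of the 18717 (0%) was called for either interaction by edgeR, with 577 and 1098 genes at an unadjusted p below 0.05. For Kcna1 the interaction was 0.30 (SE 0.20) and 0.39 (SE 0.20, edgeR adjusted p = 0.826).

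Other genes of channel function were read from 7 lists: the remaining Kv1 to Kv4 pore-forming genes, Kv7 with Kv10 to Kv12, the electrically silent Kv genes, further Kv auxiliary subunits, proteins that cluster Kv1 channels on axons, calcium-activated and two-pore potassium channels, and voltage-gated sodium, calcium and HCN channels. Of 98 listed genes 91 were tested. In Dp16 against WT none of the 91 was called by edgeR, and 4 were at an unadjusted p below 0.05 beside 8.84% of all genes. DESeq2 called 1 of the 91, beside 247 of all 18717 genes. Of the 91, 31 lay above 0 and 60 below, with a median log2 fold change of -0.05, while of all 18717 genes 9233 lay above and 9484 below. In Dp16_2xIFNRs against WT again none was called by edgeR, and 8 were at an unadjusted p below 0.05 beside 11.5% of all genes. DESeq2 called 1 of the 91, beside 394 of all 18717 genes. Here 31 lay above 0 and 60 below, with a median of -0.02, while of all genes 9392 lay above and 9325 below. In Dp16_2xIFNRs against Dp16 none was called by edgeR or DESeq2 and 1 was at an unadjusted p below 0.05. Relatives of the pore-forming members had values such as -0.23 for Kcna4 (Dp16 against WT, edgeR adjusted p = 0.524) and -0.12 for Kcnc4 (Dp16_2xIFNRs against WT, adjusted p = 0.561).

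In the remaining lists, too, the gene of smallest p was not called by edgeR. In Dp16 those reported were Kcns3, a silent subunit, at -0.14 (SE 0.088), Adam23, of the axonal Kv1 clusters, at -0.10 (SE 0.051), the two-pore channel Kcnk2 at -0.16 (SE 0.062) and the sodium channel Scn3a at -0.13 (SE 0.072), with edgeR adjusted p between 0.397 for Kcnk2 and 0.700 for Kcns3. In Dp16_2xIFNRs they were Kcnh3 at -0.14 (SE 0.054), Kcns3 at -0.08 (SE 0.087), Epb41l3 at 0.12 (SE 0.051), Kcnk3 at -0.16 (SE 0.055) and the calcium channel Cacna1a at -0.11 (SE 0.061), with edgeR adjusted p between 0.214 for Kcnk3 and 0.814 for Kcns3.

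The auxiliary gene Kcnip1 encodes a calcium-binding protein that assembles with Kv4 channels such as Kcnd2. It was at 19.9 to 22.2 CPM in WT, 22.0 to 25.9 CPM in Dp16 and 22.4 to 25.7 CPM in Dp16_2xIFNRs, so that the Dp16_2xIFNRs libraries did not overlap WT, as was true of 1.34% of all genes. Its log2 fold change was 0.19 (SE 0.048, edgeR adjusted p = 0.0867) in Dp16 and 0.19 (SE 0.048, adjusted p = 0.0636) in Dp16_2xIFNRs. DESeq2, which called 247 and 394 of all 18717 genes, called it in both (adjusted p = 0.0174 and 0.0145). In Dp16_2xIFNRs 5 other settings did so too (adjusted p from 0.0376 to 0.0464). For the mean of both against WT it was called higher, at 1.14-fold (log2 0.19, SE 0.042, edgeR adjusted p = 0.0231). That call was lost without WT library 1, 3, 4 or 5 (edgeR adjusted p 0.0503, 0.0685, 0.0600 and 0.0644), and with no filter on low counts (0.0699). Kcnd2 itself was at -0.15 in the same contrast, without a call.

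The labelled tissue was checked against cell type and region markers. Excitatory cortical neuron markers (12 genes) summed to 1346 to 1638 RPKM and parvalbumin interneuron markers (10 genes) to 100 to 123 RPKM, and no gene of the marker lists was at 0. The parvalbumin list ran from 104 to 123 RPKM in WT, 100 to 122 RPKM in Dp16 and 107 to 120 RPKM in Dp16_2xIFNRs. In either comparison with WT 0 of 10 genes were called by edgeR. At an unadjusted p below 0.05 were 3 in Dp16 and 1 in Dp16_2xIFNRs, beside 8.84% and 11.5% of all genes. In each comparison 5 of the 10 lay above 0 and 5 below, with median log2 fold changes of 0.0072 and -0.00046. Pvalb, 1 of those below 0, was at -0.15 in Dp16 (edgeR adjusted p = 0.603) and -0.14 in Dp16_2xIFNRs (adjusted p = 0.522). Among the other neuronal and glial lists, Cort, the gene of the neuropeptide cortistatin, was called higher in both (1.73-fold in Dp16 and 1.60-fold in Dp16_2xIFNRs, edgeR adjusted p = 0.000306 and 0.00207), and Fgfr3 was called lower in Dp16_2xIFNRs (0.810-fold, adjusted p = 0.0464), a call that was lost in 20 of 34 other settings. Apart from these 2 genes, none of these lists held a gene called by edgeR in either comparison with WT or between the duplication genotypes, with at most 3 genes of a list at an unadjusted p below 0.05. Of the 12 excitatory neuron markers 3 lay above 0 and 9 below in each comparison with WT (median log2 fold changes -0.05 and -0.07). Of the 10 somatostatin, VIP and pan-GABAergic markers 8 lay above 0 and 2 below in each (medians 0.10 and 0.07). Endothelial and pericyte markers had 6 of 10 below 0 in Dp16 and 9 of 10 in Dp16_2xIFNRs. Of all 18717 genes 9484 and 9325 lay below 0.

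The summed ranges of the other lists overlapped between genotypes. Choroid plexus markers (8 genes) ran from 3.45 to 158 RPKM in WT, 4.5 to 313 RPKM in Dp16 and 3.79 to 13.3 RPKM in Dp16_2xIFNRs. The median sums were 11.82, 11.98 and 7.72 RPKM in the same order. In Dp16_2xIFNRs against Dp16 8 of 8 genes had a log2 fold change below 0 (median -0.996, 0 called by edgeR and 3 at an unadjusted p below 0.05). Oligodendrocyte markers ran from 948 to 1250 RPKM in WT, 1028 to 1315 RPKM in Dp16 and 1137 to 1234 RPKM in Dp16_2xIFNRs, where 10 of 10 lay above 0 against WT (median 0.13). Microglia markers ran from 152 to 227 RPKM in WT, 179 to 212 RPKM in Dp16 and 178 to 206 RPKM in Dp16_2xIFNRs, where 9 of 10 lay below 0 against WT (median -0.12). Of all genes 9392 lay above 0 and 9325 below in Dp16_2xIFNRs against WT. Over all 18 libraries astrocyte markers ran from 899.9 to 1327 RPKM, the somatostatin, VIP and pan-GABAergic list from 821 to 940.1 RPKM, endothelial and pericyte markers from 97.4 to 138 RPKM, thalamus markers from 29.4 to 41.0 RPKM and hippocampus markers from 40.0 to 56.8 RPKM. The part of these markers in the Kcnab3 difference was not tested. A fit with the summed parvalbumin markers added was an alternative chosen after seeing the data. In it Kcnab3 was at -0.40 in Dp16 (edgeR adjusted p = 0.0345) and -0.33 in Dp16_2xIFNRs (adjusted p = 0.0779), each against WT.

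Markers of the neighbouring striatum varied widely between libraries of every genotype. Their summed level ran from 165 to 530 RPKM in WT, 166 to 475 RPKM in Dp16 and 156 to 622 RPKM in Dp16_2xIFNRs, with 0 of 10 genes called by edgeR in either comparison with WT and 0 at an unadjusted p below 0.05. Of the 9 members, Kcnab1 moved with them: over the 18 libraries, after the means of genotype and sex were removed, its log2 CPM and the log2 summed marker level had Pearson's r = 0.917 and Spearman's rho = 0.88 (permutation p = 1e-05 for both, the smallest that 100000 permutations can give, adjusted 0.00018 over 18 relations of 9 genes with 2 lists). Without the 2 libraries farthest from the median marker level r was 0.897, and within WT, Dp16 and Dp16_2xIFNRs it was 0.878, 0.951 and 0.944. The Kcnab1 library at 66.0 CPM, Dp16 library 4, had 166 RPKM of striatum markers, and the one at 126 CPM, Dp16_2xIFNRs library 5, had 622 RPKM.

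Kcnc2 went the opposite way, with r = -0.612 and rho = -0.651 (permutation p adjusted 0.0338 and 0.0255), r = -0.63 without the 2 farthest libraries, and -0.768, -0.656 and -0.455 within the 3 genotypes in the same order. The permutations made no allowance for the genotype and sex means removed, so these p-values are somewhat too small. Adjusted values not far below 0.05, such as those of Kcnc2, are therefore uncertain. Kcnab2 also had negative values, with r = -0.497 and rho = -0.604 (adjusted permutation p = 0.132 and 0.0443), r = -0.691 without the 2 farthest libraries, and -0.594, -0.56 and -0.413 within the genotypes. For Kcnab3 no such relation was detected, with r = -0.0472 and rho = -0.127 (adjusted permutation p = 0.945 and 0.794). A fit with the striatum markers added was also chosen after seeing the data. In it Kcnab3 was at -0.42 in Dp16 (edgeR adjusted p = 0.0217) and -0.34 in Dp16_2xIFNRs (adjusted p = 0.0738), each against WT. The SE of Kcnab1 in Dp16 was 0.053 in place of 0.118. The part of striatal tissue in the Kcnab3 difference was not tested.

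**Figure D4:**
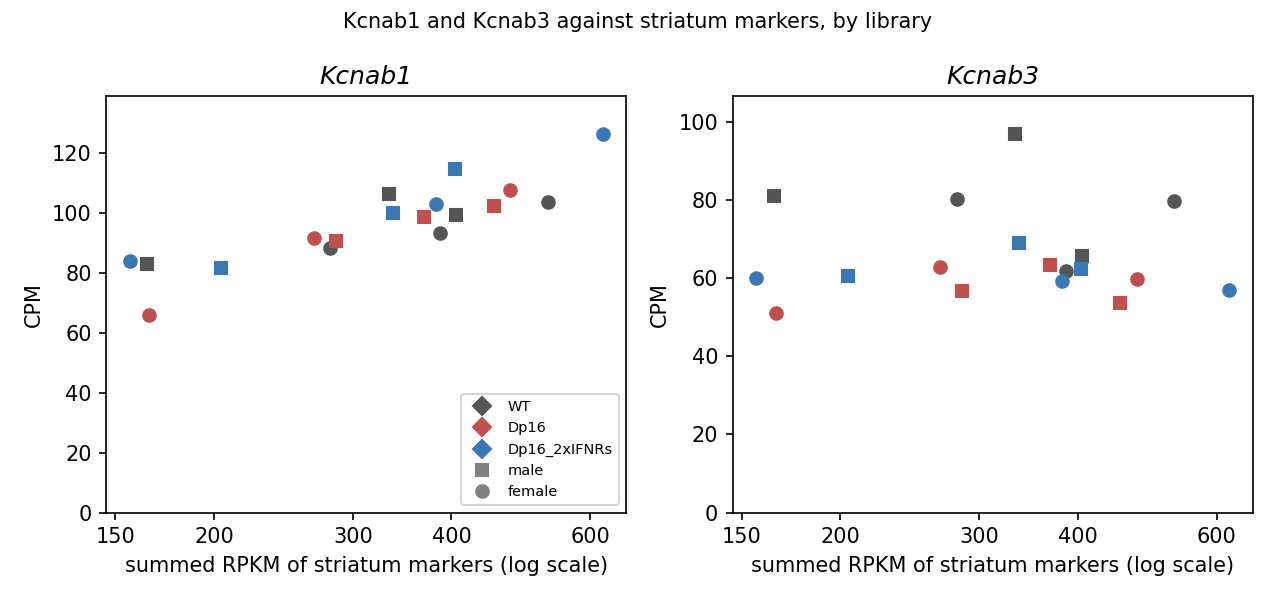
CPM of Kcnab1 and Kcnab3 against the summed RPKM of 10 striatum markers (log axis), 1 point per library, coloured by genotype, with squares for males and circles for females. Kcnab1 is higher where the marker level is higher (r = 0.917 after removal of genotype and sex means), and Kcnab3 shows no such slope, with 4 of its 6 WT points above all others.

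With the parvalbumin list, Kcnab1 had r = 0.783 and rho = 0.692 (permutation p adjusted 0.00054 and 0.017) and Kcnd2 r = 0.648 and rho = 0.455 (adjusted 0.0209 and 0.175). These permutation p-values are somewhat too small for the same reason. For Kcnd2, r was 0.487 without the 2 farthest libraries, and within WT, Dp16 and Dp16_2xIFNRs it was -0.436, 0.912 and 0.826. The sign thus differed in WT, but each of these values rests on 6 libraries and was not tested. For Kcnab1, r was 0.629 without the 2 farthest libraries and 0.993, 0.686 and 0.888 within the genotypes. Tac1 is in both lists, so the 2 marker levels are not independent. Kcna1, Kcnc1 and Kcnc2, which fast-spiking interneurons use, had r of 0.363, 0.118 and -0.084 with the list, none with an adjusted p below 0.05.

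The members were also compared with each other across the 18 libraries, after the means of genotype and sex were removed. Of 36 pairs, 31 had r above 0, and 13 had a permutation p adjusted over the 36 below 0.05. Here too the permutations made no allowance for the means removed. The same counts were not made for pairs of other genes, so they cannot be read as particular to channel genes. Genes outside the family reached r of up to 0.98 with a member, for Lmtk2 with Kcna2. The 15 pairs of pore-forming genes were all positive, from 0.156 to 0.89 with a median of 0.619, and 10 of them had an adjusted p below 0.05 by both r and rho. Kcna2 and Kcnc2 had the highest value, with r = 0.89 and rho = 0.889 (adjusted permutation p = 0.00036 for both), r = 0.858 without the 2 farthest libraries, and 0.933, 0.766 and 0.974 within WT, Dp16 and Dp16_2xIFNRs. The 3 pairs of beta subunits ranged from -0.502 for Kcnab1 with Kcnab2 to 0.183 for Kcnab1 with Kcnab3, and none had an adjusted permutation p of r below 0.05, although for Kcnab1 with Kcnab2 rho was -0.628 (adjusted 0.0223).

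Kcnab3 went with Kcnc1, at r = 0.775 and rho = 0.783 (adjusted permutation p = 0.00144 and 0.0018), r = 0.679 without the 2 farthest libraries, and 0.813, 0.773 and 0.621 within WT, Dp16 and Dp16_2xIFNRs. It also went with Kcna1, at r = 0.682 and rho = 0.606 (adjusted 0.00814 and 0.0251), r = 0.538 without the 2 farthest libraries. Here the values within genotypes were 0.708, 0.977 and -0.135. The sign thus differed in Dp16_2xIFNRs, but each of these values rests on 6 libraries and was not tested. All these genes were measured in the same libraries and share their scaling and their makeup of cells and regions.

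**Figure D5:**
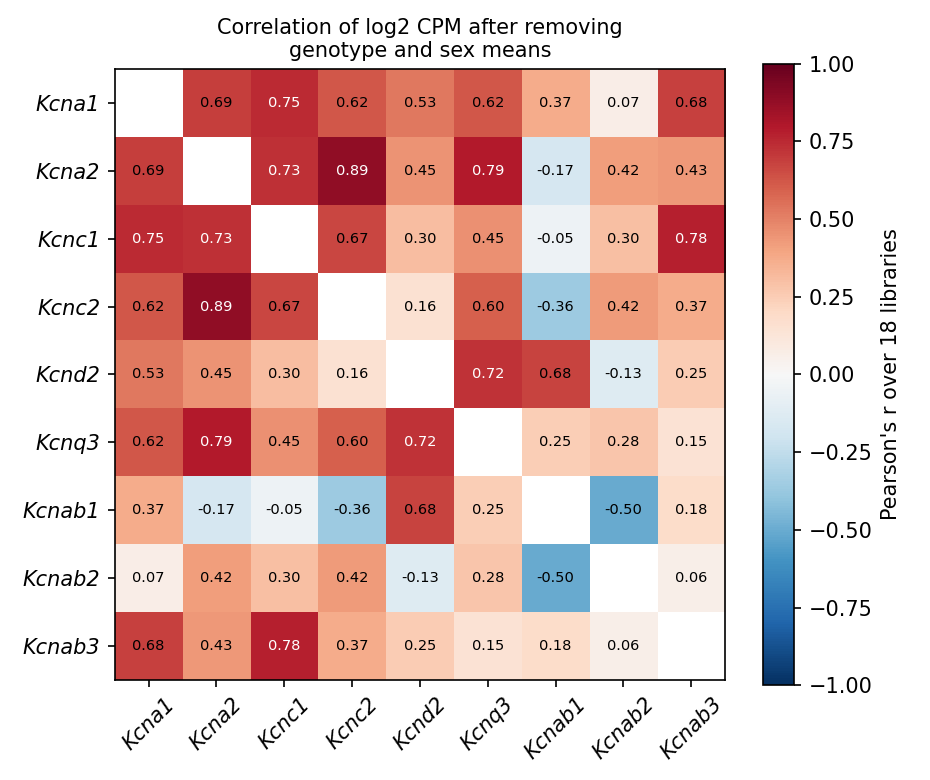
Pearson's r between the log2 CPM of each pair of genes over 18 libraries, after removal of genotype and sex means. Pairs of the 6 pore-forming genes are all positive, up to 0.89 for Kcna2 with Kcnc2, and Kcnab1 with Kcnab2 is at -0.50.

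As a description, the gene most like each member over the 18 libraries on the same scale was found among 13400 genes with a mean of at least 1 CPM. It was Arfgef1 for Kcna1 (r = 0.936), Lmtk2 for Kcna2 (0.98), Slc6a17 for Kcnc1 (0.928), Eif4g3 for Kcnc2 (0.951), Abcg1 for Kcnd2 (0.889) and Gsk3b for Kcnq3 (0.927). For the beta subunits it was Scn4b for Kcnab1 (0.959), Iqsec2 for Kcnab2 (0.913) and Sema7a for Kcnab3 (0.882). These are the highest of many values and carry no test.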

How the data were processed

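Polyadenylated RNA was measured in 18 libraries of mouse brain cortex, 6 per genotype. Strand-specific paired-end libraries were made with a Tecan/Nugen kit from TRIzol RNA, per the labels' protocols. The alignment and counting tools named were HISAT2 2.1.0 and HTSeq 0.6.1, on build GRCm38, per the submitters' processing notes. The strand setting and filters of the counting were not stated. The authors deposited raw, unscaled counts per gene. Their deposited RPKM values equalled count over library total and 1 length per gene for 31735 of 31735 genes counted in at least 2 libraries (relative tolerance 1e-06).

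Counts were filtered with filterByExpr by group (minimum count 10), scaled by TMM and tested with edgeR 4.0.16 (quasi-likelihood F test, robust dispersions, genotype and sex as terms, all 18 libraries, Benjamini-Hochberg over 18717 genes) in R 4.3.3. The fit had 14 residual degrees of freedom and a common biological coefficient of variation of 12.2%. On simulated counts over 18502 genes, 25 of 49 genes lowered to 0.75-fold were called for Dp16 against WT and 4 of 18309 unchanged genes. The changed genes were drawn at random from genes of any level that passed the filter, and no sex effect was simulated. The share called is thus not specific to genes at the level of the 9. Log2 CPM used a prior count of 2. No 2 libraries held identical counts. RPKM served levels between genes and an alternative fit with limma 3.58.1 on log2(RPKM + pseudocount), pseudocounts 0.1 and 1. DESeq2 1.42.0, limma-voom, other scalings, filters, covariates and leaving out each library were further alternatives. Correlations were tested with 100000 permutations (SciPy 1.17.1). The values left after removal of genotype and sex means were permuted freely. No allowance was made for the means removed, so the permutation p-values are somewhat too small. Coding sequences came from GENCODE M21 transcripts and were aligned with MAFFT 7.526. The genes described and the lists were chosen with earlier results of these data known. The 9 members were all named. Of each channel list called genes were named, or otherwise the gene of smallest p in each comparison with WT, except 1 value, which like 1 sequence is not reported here. Of marker lists called genes were named, with Pvalb and Tac1 beside them, and every list's summed level was given.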

Additional observations from a re-analysis of the deposited data

Results flagged for a closer look

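Kcnd2 in Dp16 library 4 was at 67.3 CPM, while the other 5 Dp16 libraries lay between 91.2 and 102 CPM. The gap to the nearest of them took 0.685 of the range of the group. It was the 1 group set apart in this way of 27 examined (9 genes in 3 genotypes), and chance sets apart about 1 group in 20. The same library was the lowest of its group in 7 of the 9 genes, and its depth was 46346019 counts, the lowest of the 18.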

How the results depend on the processing

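Kcnab3 kept its direction against WT in all alternatives run. For the mean of both duplication genotypes it was called in 33 of 33, with log2 fold changes from -0.43 to -0.31. In Dp16 against WT the number of members called was 0 with the libraries of the 2 groups alone (log2 fold change -0.42, edgeR adjusted p = 0.109), and 0 to 1 with 1 library left out. In Dp16_2xIFNRs against WT it was 1 with DESeq2, with the replicate block (-0.32, edgeR adjusted p = 0.00788) and with the identifier number as a random block in limma-voom (-0.32, adjusted p = 0.0372), and 0 to 1 with 1 library left out. In 29 of 34 alternatives for this comparison it was 0. The replicate numbers were not taken as pairing, since 11 of 18 same-numbered pairs, not all, had a correlation of deviations over 0.1 (lowest -0.181, median 0.178). Pairs with other numbers had a median of -0.0352, and 11 of 18 libraries, not all, were closest to one of their own number, a hint of likeness from the data and not from the design. With the replicate block the genes called were 304 in Dp16_2xIFNRs against WT and 414 for the mean of both, against 196 and 269.

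DESeq2 called 247, 394 and 517 genes in Dp16, in Dp16_2xIFNRs and for their mean against WT. With 1 library left out these counts ran from 102 to 147, 121 to 270 and 176 to 307; the lowest were without Dp16_2xIFNRs library 2 (121) and WT library 2 (125 and 176) in the last 2. The cause was not tested.

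Uncalled values near 0 changed sign. With sample quality weights Kcna1 was at 0.0185 and Kcnab1 at 0.00487 in Dp16 against WT, and Kcnc2 at 0.00131 in Dp16_2xIFNRs against WT, where limma on RPKM gave 0.00302 and 0.00261. With age added Kcnc2 was at -0.00209 in Dp16_2xIFNRs against Dp16. With the parvalbumin markers added Kcnab1 was at 0.0378 in Dp16 against WT and Kcnd2 at -0.00862 in Dp16_2xIFNRs against Dp16. With the identifier block Kcnab1 was at -0.00444 for the mean of both. With 1 library left out the ranges that crossed 0 were, in Dp16 against WT, Kcna1 -0.117 to 0.0292, Kcnab1 -0.0981 to 0.0402 and Kcnab2 -0.0489 to 0.0133. In Dp16_2xIFNRs against WT they were Kcna2 -0.0719 to 0.00228 and Kcnc2 -0.0561 to 0.0149. In Dp16_2xIFNRs against Dp16 they were Kcnab2 -0.0518 to 0.0110, Kcnc1 -0.0245 to 0.0281, Kcnc2 -0.00972 to 0.0737 and Kcnd2 -0.0629 to 0.0501. The value of -0.0629 for Kcnd2 was without Dp16 library 4. For the mean of both they were Kcna1 -0.0155 to 0.113, Kcnc2 -0.0692 to 0.00161 and Kcnab1 -0.0204 to 0.0632. Mean levels as a percentage of WT moved by less than 1 SD between RPKM and CPM for all 9 genes. With at least 2372 counts per gene and library, counting error was small beside the spread between libraries.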
